A study of Mus musculus with 6 samples.

Results

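The kinesin motor genes of mouse TH17-skewed T cells are described here across cultures with and without glutamine. They were taken as every gene whose single symbol in the array's annotation is Kif followed by a number and at most 1 letter from a to c, and 35 of the 30701 genes tested met this rule. The rule uses no measured value. It splits them into 11 mitotic kinesins (Kif2c, Kif4, Kif11, Kif14, Kif15, Kif18a, Kif18b, Kif20a, Kif20b, Kif22 and Kif23) and 24 others. Kif1c, Kif17 and Kif27 share their array rows with other genes and are not analysed here. Naive CD4 T cells sorted as CD25- CD62L+ CD44- were activated through CD3 and CD28 and grown for 3 days in serum-containing IMDM. Both groups received the cytokines IL-6, IL-23 and TGF-beta, with neutralizing antibodies to IL-4, IL-12 and IFN-gamma. The control cultures had glutamine (3 arrays) and the glutamine-free cultures did not (3 arrays). The labels name no mouse strain, age or genotype, and call the arrays biological replicates without tying them to separate animals. The p-values therefore measure only the spread between these arrays, which may be technical. The comparison asks which kinesin transcripts differ when the amino acid glutamine is missing.

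Kinesins are motor proteins that use ATP to walk along microtubules or to take their ends apart. One set works in dividing cells, where it separates spindle poles, moves and aligns chromosomes, and builds the central spindle along which the cell is cut. Another set carries vesicles, organelles and protein complexes, and is best known from nerve cells and cilia. Activated T cells divide fast, and mitotic kinesin transcripts accumulate as cells approach mitosis, so their level in a bulk sample follows both the share of cells in that phase and the RNA per cell. These arrays cannot tell fewer dividing cells from less RNA per cell.

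Levels are the authors' deposited log2 values, and each change is the glutamine-free mean less the control mean, in log2 units. Array medians lay between 4.18 and 4.21 with glutamine and between 4.33 and 4.38 without it, and 695 to 887 rows per array read above 16, so changes are given as log2 differences and not as folds. Of 8 measured T cell markers, Cd3d and Cd5 rose, 1 fell and 5 did not pass as deposited. Centring left the counts as they were, and after quantile normalization 3 were lower and 1 was higher. Il17a, the TH17 cytokine, fell from 12.75 to 5.94 (adjusted p = 8.83e-05). Cd3e read 16.89 ± 0.07 and 16.90 ± 0.06 (SD, n = 3) with and without glutamine. The mean level of these markers, Il17a included, was 14.37 to 14.50 on control arrays and 13.68 to 13.91 on glutamine-free arrays. Il17a changed by -6.81 and was the 1 marker that fell as deposited. Cd4 was the only other marker with a negative change (-0.14), and it did not pass. Markers of B cells (0 of 4), dendritic cells (0 of 4) and NK cells (0 of 3) did not pass as deposited, and 1 dendritic marker was lower after centring. Among 6 myeloid markers Cd68 rose by 1.58 and Lyz2 and S100a8 changed by -1.66 and -0.55, with a mean list level of 4.60 to 4.81 in control arrays and 4.53 to 4.68 in glutamine-free arrays. Csf1r, Itgam and Adgre1 read between 3.48 and 3.97 on every array. Among 5 stromal markers Lum alone passed as deposited and 2 were lower after either scaling; Lum changed by -4.37, with a mean list level of 5.85 to 5.92 and 4.89 to 5.01. Of 2 CD8 T cell markers Cd8b1 changed by -0.71 and Cd8a did not pass, with a mean list level of 5.87 to 6.02 and 5.51 to 5.64. The part of these cell types in the kinesin results was not tested.

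All 11 mitotic kinesins fell without glutamine, while most of the other kinesins did not pass the test. Their changes ran from -2.39 for Kif20a to -1.17 for Kif18a, with a median of -1.81. Among the 24 other kinesins, 5 fell, 1 rose and 18 did not pass, and the median change was 0.05. Over all genes tested, 22.3% were called at an adjusted p under 0.05 (limma), 13.0% lower and 9.30% higher, with a median change of 0.06. The lower calls thus made up 100% of the mitotic kinesins and 20.8% of the others, against 13.0% of all genes. The higher calls made up 4.17% of the other kinesins. Genes above the median level were also fitted alone. Of these 15350 genes 4089 were called lower, as were 11 of 11 mitotic kinesins and 5 of 15 others. The 13.0% set beside other lists below includes dimmer genes and was not matched to the level of those lists. Every glutamine-free array stood below every control array for 11 of 11 mitotic kinesins and 7 of 24 others, and for 18.8% of all genes. The reverse held for 0 mitotic kinesins, 9 of 24 others and 25.0% of all genes. Leaving out an array lowered some counts: 3 other kinesins fell without control replicate 2, and the 6845 genes called in all became 4345 without it, 4061 without glutamine-free replicate 2 and 4559 without glutamine-free replicate 3. The median of the other kinesins stayed close to that of all genes and changed sign with the scaling. It was -0.03 after quantile normalization, where the median of all genes was -0.048, and -0.11 after centring on the array medians, where that of all genes was -0.095. The mitotic median was -1.85 and -1.96 under these scalings, with all 11 genes called lower in each.

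**Figure D1:**
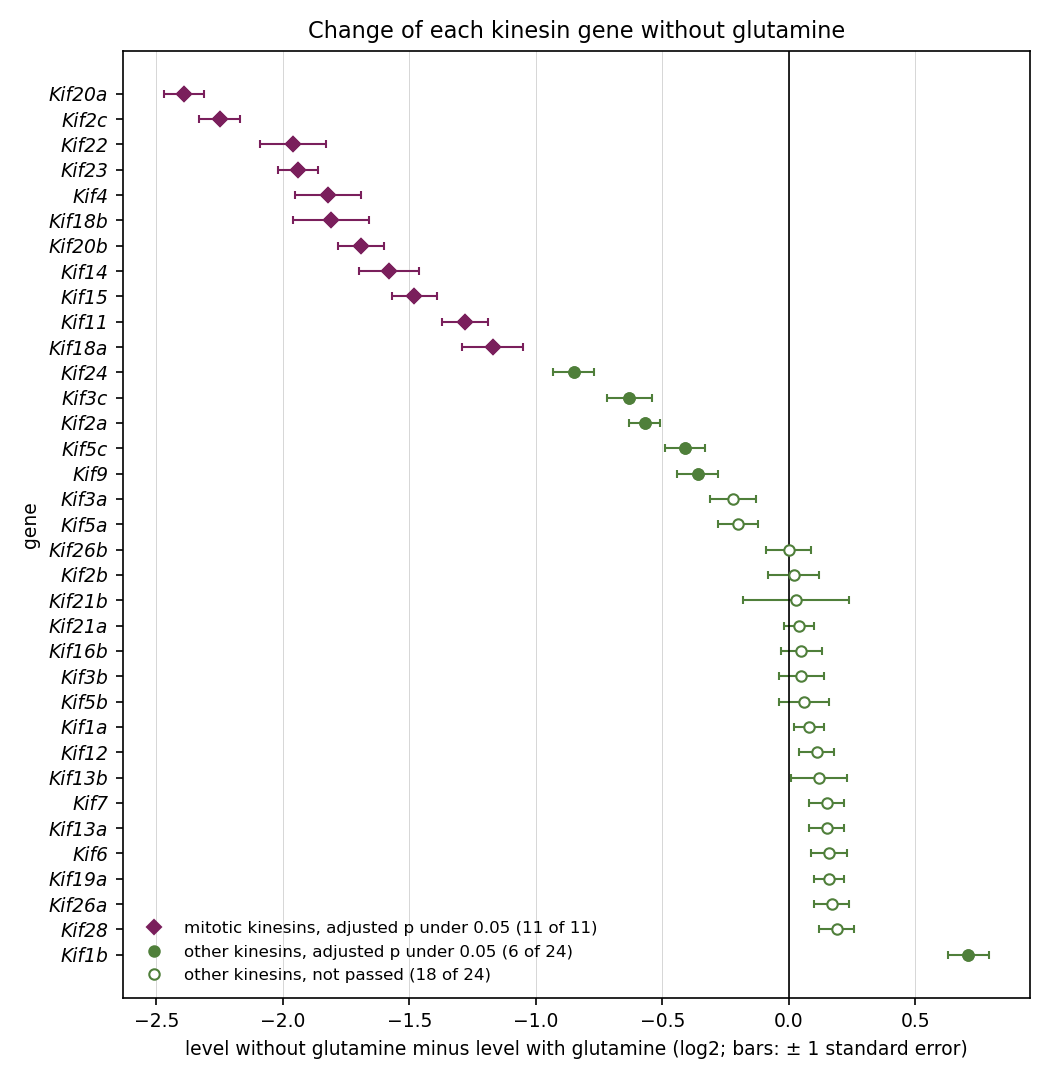
Change of each of the 35 kinesin genes, as the level without glutamine minus the level with it in log2 units, with bars of ± 1 standard error from limma; filled points passed an adjusted p of 0.05, diamonds are the 11 mitotic kinesins and circles the 24 others. The mitotic kinesins occupy the low end from -2.39 to -1.17, the others run from -0.85 (Kif24) to 0.71 (Kif1b), on the deposited scale; the open points, which did not pass, lie between -0.22 and 0.19 there and lower after centring.

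The motors that drive spindle poles apart, Kif11 and Kif15, fell by less than the median of the mitotic set. Kif11, the bipolar motor that slides antiparallel microtubules, read 14.34, 14.30 and 14.24 with glutamine and 13.12, 12.87 and 13.05 without it. It fell by 1.28 (SE 0.09, adjusted p = 0.000322, limma). Kif15, which can stand in for Kif11 at the spindle, read 11.77, 11.72 and 11.84 against 10.37, 10.13 and 10.37 and fell by 1.48 (SE 0.09, adjusted p = 0.00024). Neither gene's groups overlapped, and in both the second glutamine-free array was the lowest.

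The motors of chromosomes and microtubule ends fell by unequal amounts. Kif2c, the centromeric depolymerase also called MCAK that corrects faulty attachments, read 11.57, 11.42 and 11.37 with glutamine and 9.20, 9.20 and 9.22 without it. It fell by 2.25 (SE 0.08, adjusted p = 6.78e-05) and its glutamine-free arrays were nearly equal (SD 0.01). Kif22, a chromokinesin that binds DNA and pushes chromosome arms outward, read 10.63, 10.44 and 10.22 against 8.45, 8.31 and 8.64, and fell by 1.96 (SE 0.13, adjusted p = 0.00032). Kif4, a chromokinesin that also marks the central spindle through its partner Prc1, read 11.36, 11.41 and 11.17 against 9.57, 9.25 and 9.67, and fell by 1.82 (SE 0.13, adjusted p = 0.000361). The groups of both chromokinesins stood apart. Array rows named for the pseudogenes Kif4-ps and Kif22-ps did not pass (changes of 0.05 and -0.21, adjusted p = 0.842 and 0.253); how far their probes share sequence with the parent genes is not known here.

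The kinesin-8 motors Kif18a and Kif18b both act at microtubule plus ends. Kif18a, which damps the oscillation of aligned chromosomes, read 9.20, 8.89 and 9.13 against 8.07, 7.77 and 7.86. It fell by 1.17 (SE 0.12, adjusted p = 0.00125), the smallest change among the mitotic kinesins. Kif18b, which shortens astral microtubules, read 11.14, 10.81 and 11.17 against 9.06, 9.12 and 9.52, and fell by 1.81 (SE 0.15, adjusted p = 0.000745), with the widest glutamine-free spread of the set (SD 0.25).

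The motors of the central spindle and of cytokinesis held the largest fall. Kif20a, which brings the chromosomal passenger complex and Plk1 to the central spindle, read 12.63, 12.51 and 12.40 with glutamine and 10.09, 10.11 and 10.15 without it. It fell by 2.39 (SE 0.08, adjusted p = 6.78e-05). Kif23, the motor subunit of centralspindlin that binds Racgap1, read 11.23, 11.14 and 11.22 against 9.25, 9.17 and 9.36 and fell by 1.94 (SE 0.08, adjusted p = 8.83e-05). Both genes had narrow groups that lay far apart. Kif20b, which acts late in cytokinesis, read 11.40, 11.26 and 11.52 against 9.73, 9.61 and 9.79, and fell by 1.69 (SE 0.09, adjusted p = 0.000177). Kif14, which brings citron kinase to the cleavage site, read 9.41, 9.40 and 9.42 against 7.86, 7.59 and 8.04, and fell by 1.58 (SE 0.12, adjusted p = 0.000433). In Kif14 the control arrays were nearly equal (SD 0.01) while the glutamine-free arrays varied more (SD 0.22).

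**Figure D2:**
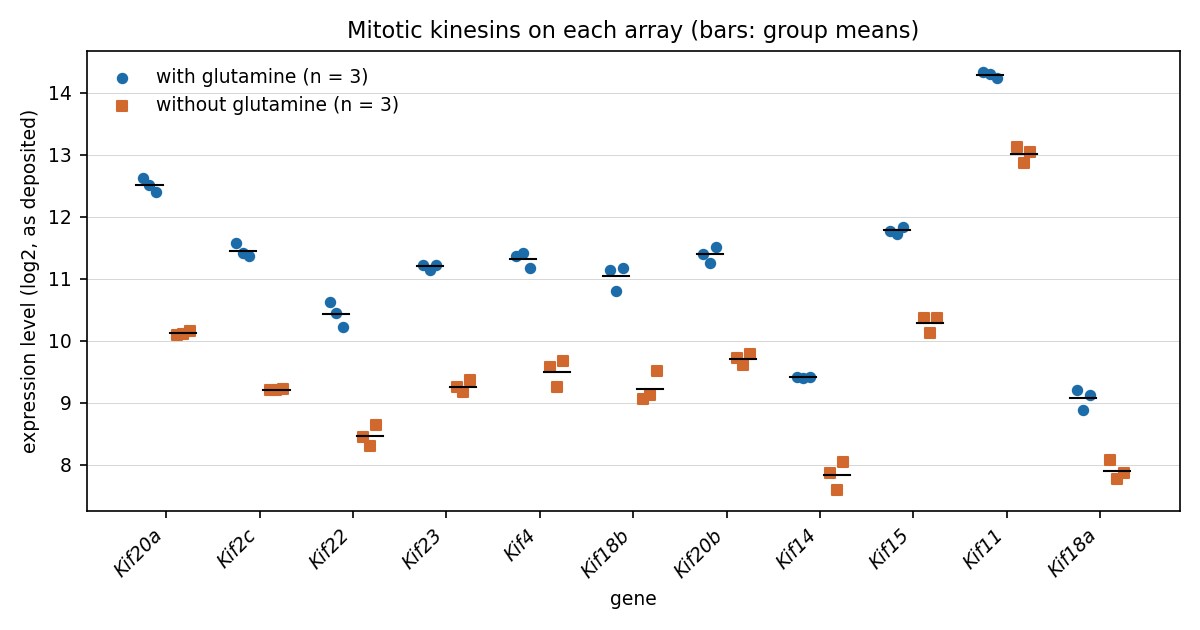
Deposited log2 level of each mitotic kinesin on each of the 6 arrays, blue circles with glutamine and orange squares without it (n = 3 each), black bars being group means; genes run from the largest fall (Kif20a, -2.39) to the smallest (Kif18a, -1.17). In every gene the highest glutamine-free array lies below the lowest control array.

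Averaged over the 11 mitotic kinesins, the control arrays read 11.33, 11.21 and 11.25 and the glutamine-free arrays 9.52, 9.38 and 9.61. The second glutamine-free array was the lowest of its group for 8 of the 11 genes and the first control array was the highest of its group for 6. Among the 24 other kinesins these counts were 10 and 6, and the shares over all genes were not counted. For comparison, the 24 other kinesins averaged 6.28, 6.29 and 6.27 with glutamine and 6.22, 6.23 and 6.28 without it. The group averages of the mitotic set stood apart, and those of the other set overlapped at 6.28.

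By family, all 3 kinesin-6 genes (Kif20a, Kif20b and Kif23) fell, as did Kif11 and Kif22, the measured members of kinesin-5 and kinesin-10. Kinesin-11 (Kif26a and Kif26b) had 0 of 2 genes past the threshold. In kinesin-3, Kif14 fell, Kif1b rose and 5 genes did not pass, and in kinesin-4, Kif4 fell and 3 genes did not pass. In kinesin-8, Kif18a and Kif18b fell and Kif19a did not pass, and in kinesin-12, Kif15 fell and Kif12 did not pass. Over all genes tested, 13.0% were called lower and 9.30% higher. Of these family members, Kif1a, Kif12, Kif19a, Kif21a, Kif26b and Kif28 read only 3.52 to 3.85 with glutamine, below the median gene. That they did not pass may reflect their low level and does not show that they were unchanged.

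Differences between a pair of genes within the same array do not depend on how arrays are centred, and 6 pairs of relatives were compared in this way. Kif2c minus its relative Kif2a went from 1.09 ± 0.13 to -0.59 ± 0.01 (SD, n = 3; exact permutation p = 0.1), so this difference dropped by 1.68. Kif14 minus Kif1b, both kinesin-3 genes, dropped by 2.29, and Kif4 minus Kif21b, both kinesin-4 genes, dropped by 1.85. Within the mitotic set the gaps were smaller: Kif20a minus Kif20b dropped by 0.71 and Kif18b minus Kif18a by 0.63, while Kif11 minus Kif15 went from 2.51 ± 0.11 to 2.72 ± 0.04. The groups did not overlap in any of the 6 pairs, and each gave a two-sided exact permutation p = 0.1 (0.1 after Benjamini-Hochberg adjustment), the smallest that 3 arrays against 3 can give. The 0.05 threshold therefore could not be reached, and the pairs were chosen with the single changes known.

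Of the kinesins outside the mitotic set, those that fell include members with known ties to the centriole and spindle. Kif24, a depolymerase of the kinesin-13 family that acts at centrioles, read 7.88, 7.92 and 7.99 with glutamine and 7.08, 6.96 and 7.19 without it. It fell by 0.85 (SE 0.08, adjusted p = 0.00109). Kif2a, a depolymerase found at spindle poles and in neurons, read 10.35, 10.36 and 10.39 against 9.80, 9.79 and 9.81 and fell by 0.57 (SE 0.06, adjusted p = 0.00157). In the kinesin-13 family 3 of 4 genes thus fell, against 13.0% of all genes, with changes from -2.25 for Kif2c to -0.57 for Kif2a. Kif2b did not pass (change 0.02, adjusted p = 0.891, limma). It read 2.77 with glutamine, below the median gene, where a change may not be measurable.

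The other 3 genes that fell encode transport and axonemal motors. Kif3c, an alternative partner of Kif3a in heterodimeric kinesin-2, read 6.75, 6.79 and 6.62 against 6.11, 5.97 and 6.19 and fell by 0.63 (SE 0.09, adjusted p = 0.00431). Kif5c, a heavy chain of conventional kinesin known from neurons, read 5.53, 5.53 and 5.43 against 4.97, 5.18 and 5.12. It fell by 0.41 (SE 0.08, adjusted p = 0.0139), and without the second control array its adjusted p was 0.0525, within a range of 0.00294 to 0.0525 over the alternatives. Kif9, an axonemal kinesin, read 5.47, 5.64 and 5.46 against 5.07, 5.21 and 5.22 and fell by 0.36 (SE 0.08, adjusted p = 0.0258). That call did not survive the removal of any single array except control replicate 3. The adjusted p was then 0.0521 to 0.0785, and it ran from 0.00464 to 0.0785 over all 12 alternatives.

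Kif1b was the kinesin that rose. It encodes a kinesin-3 motor of mitochondria and synaptic vesicle precursors. The gene read 8.89, 8.81 and 8.91 with glutamine and 9.61, 9.45 and 9.68 without it, and its groups did not overlap. The rise was 0.71 (SE 0.08, adjusted p = 0.00223) and stayed between 0.56 and 0.78 over 12 alternatives, past the threshold in each.

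Among the 18 kinesins that did not pass, changes lay between -0.22 and 0.19 and adjusted p between 0.111 and 1 (limma). The conventional kinesin heavy chain Kif5b, which carries mitochondria and vesicles in most cells, read 12.43, 12.36 and 12.35 against 12.62, 12.40 and 12.30 (change 0.06, SE 0.10). Kif3b, a motor subunit of heterotrimeric kinesin-2, read 11.05, 10.89 and 10.95 against 10.99, 10.90 and 11.17 (change 0.05, SE 0.09). The groups of both genes overlapped. Kif21b, a kinesin-4 regulator of microtubule growth that acts in T cells, read 10.00, 10.15 and 10.20 against 9.84, 9.94 and 10.65. The third glutamine-free array stood above all others and the first 2 below all controls. Its change of 0.03 had the largest standard error of any kinesin (0.21). After centring the changes of Kif5b, Kif3b and Kif21b were -0.10, -0.10 and -0.13, and after quantile normalization -0.05, -0.01 and 0.00. Without the third glutamine-free array that of Kif21b was -0.23.

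**Figure D3:**
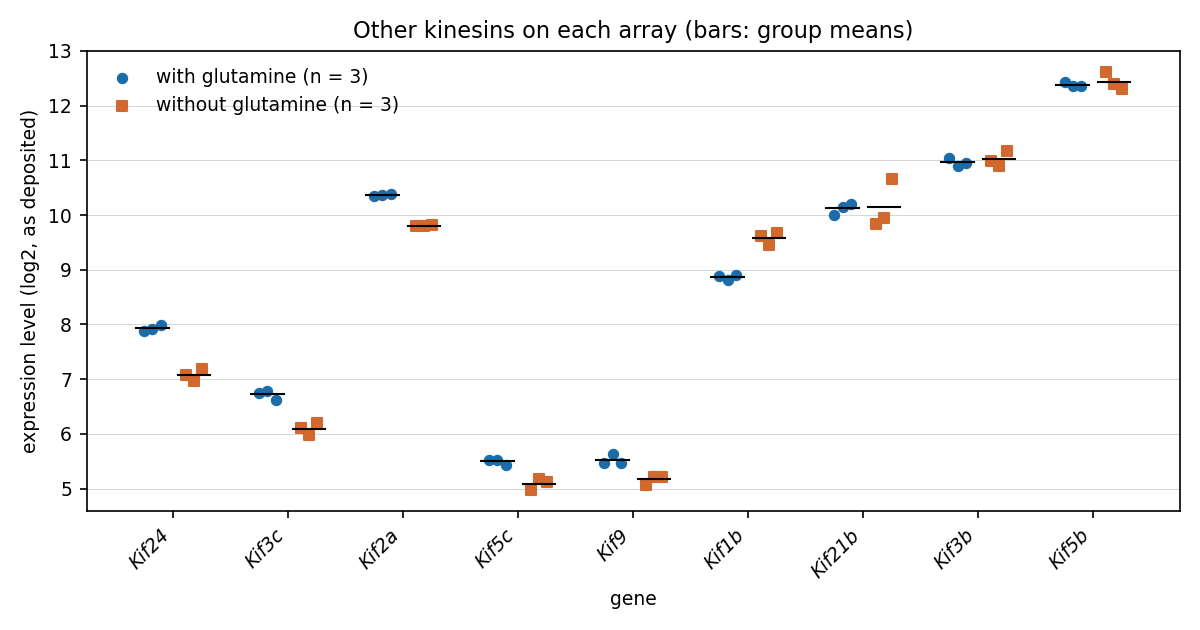
Deposited log2 level on each of the 6 arrays for the 6 other kinesins that passed the test (Kif24 to Kif1b, by change) and for Kif21b, Kif3b and Kif5b, the brightest that did not; blue circles are arrays with glutamine, orange squares without it (n = 3 each) and black bars group means. The groups are apart for the first 6 genes and overlap for the last 3; the changes of the last 3 were negative after centring.

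Of the other members that did not pass, Kif3a, which pairs with Kif3b, changed by -0.22 and Kif5a, a neuronal heavy chain, by -0.20. Kif3a was called lower after centring, and Kif5a after centring and after quantile normalization. The endosome and vesicle motors Kif13a, Kif13b and Kif16b changed by 0.15, 0.12 and 0.05, and the Hedgehog regulator Kif7 by 0.15. Kif26a changed by 0.17. The remaining 8, with Kif5a, had mean levels below the median gene, from 2.77 to 4.12 with glutamine. They are Kif1a, Kif2b, Kif6, Kif12, Kif19a, Kif21a, Kif26b and Kif28. A change in genes this dim may not be measurable on these arrays.

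Kinesin-related genes outside the Kif pattern, which include light chains and binding proteins that are not motors, were also split. Of 11 measured, 5 fell (45.5%, against 13.0% of all genes) and 1 rose (9.09%, against 9.30%). Cenpe, the kinesin-7 motor that carries chromosomes to the spindle equator, read 11.93, 11.94 and 11.90 against 10.20, 9.87 and 10.33 and fell by 1.79 (SE 0.12, adjusted p = 0.000339). Kifc1, a minus-end motor that focuses spindle poles, changed by -1.20 and its close relative Kifc5b by -0.89; the 2 genes are near-identical copies, so their separate changes are uncertain. The row named for a further relative, the pseudogene Kifc5c-ps, was also lower (change -0.55, adjusted p = 0.00943). Kifap3, which links the Kif3a and Kif3b dimer to cargo, changed by -0.65 and the kinesin-binding protein gene Kifbp by -0.48, both past the threshold. The minus-end motor gene Kifc3 rose by 0.40 as deposited, and no gene of the list was called higher after either scaling. Klc1, the light chain that joins conventional kinesin to cargo, changed by -0.14 (adjusted p = 0.285).

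Genes that work with mitotic kinesins fell in every measured case. Of 19 partners and regulators, Cenpe and Kifc1 among them, 19 fell (100%, against 13.0% of all genes) and 0 rose, with a median change of -1.73. The list also holds genes of the G2/M programme and was chosen with the fall of that programme known. The mitotic kinase genes Plk1 and Aurka changed by -2.57 and -2.56. Tpx2, which binds Kif11 and targets it to the spindle, read 13.48, 13.63 and 13.52 against 11.19, 11.08 and 11.39 and fell by 2.32. Aurkb, the kinase that Kif20a helps to place, fell by 2.29. Prc1 and Racgap1, the partners of Kif4 and Kif23, changed by -2.04 and -1.42, past the threshold. The smallest change was that of Cit, the citron kinase gene whose product binds Kif14 (-1.01, adjusted p = 0.00755).

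Markers of cycling cells moved with the mitotic kinesins. Of 6 measured, 4 fell as deposited (66.7%, against 13.0% of all genes) and 6 after either scaling. The proliferation marker Mki67, Top2a, Ccna2 and Mybl2 changed by -0.86, -1.03, -1.63 and -1.89, while the replication genes Pcna and Mcm2 changed by -0.31 and -0.38 without passing as deposited. The mean level of the list was 13.64 to 13.77 on control arrays and 12.60 to 12.77 on glutamine-free arrays. The part of cell cycle position in the kinesin falls was not tested.

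Genes of cargo transport and of the minus-end motor dynein had medians nearer to 0, and the difference between lists was not tested. Of 14 cargo adaptors, some of them already named as kinesin-related genes, 3 fell (Kifap3, Kifbp and Rhot1), 0 rose and 11 did not pass. The 21.4% called lower compares with 13.0% of all genes and with 4089 of the 15350 genes above the median level. The median change of 0.08 was -0.07 after quantile normalization and -0.08 after centring. Rhot1 changed by -0.34 (adjusted p = 0.0253, limma). Trak1 and Trak2, which couple mitochondria to Kif5b, changed by 0.11 and 0.04 (adjusted p = 0.561 and 0.75). Of 19 dynein and dynactin genes, 10 fell (52.6%, against 13.0% of all genes) and 1 rose (5.26%, against 9.30%), with a median change of -0.37. The largest falls were those of the dynein light chain gene Dynlt3 (-1.03), of Nde1, which recruits dynein at kinetochores (-0.79), of the light intermediate chain gene Dync1li1 (-0.75) and of the dynactin gene Dctn3 (-0.62). Dynlt1b rose by 0.32 as deposited and was not called higher after either scaling. It read 3.36 with glutamine and 3.68 without it, as dim as the kinesins below the median gene. The dynein heavy chain gene Dync1h1 changed by 0.11 (adjusted p = 0.6, limma).

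**Figure D4:**
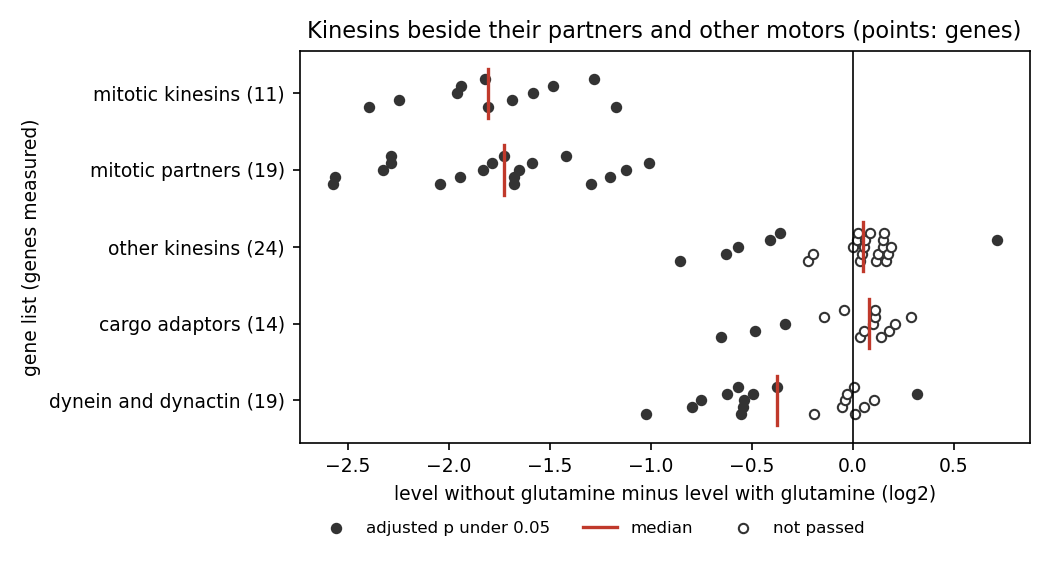
Change of each gene (points) in 5 lists, as the level without glutamine minus the level with it in log2 units, with filled points past an adjusted p of 0.05, open points not past it and red bars at the list medians. The medians are -1.81 for mitotic kinesins, -1.73 for mitotic partners, 0.05 for other kinesins, 0.08 for cargo adaptors and -0.37 for dynein and dynactin genes; those of other kinesins and cargo adaptors turn negative under the other scalings.

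Promoters were read because the mitotic kinesins moved together. Many genes switched on before mitosis carry a cell cycle genes homology region (CHR), bound by the DREAM and MuvB complexes, and CCAAT boxes, bound by NF-Y. RefSeq (GRCm38.p6) gave windows of 250 bases before and 50 after the transcript start for 10 of the 11 mitotic kinesins and 18 of the 24 others. The mitotic kinesin without a window was Kif20a, which had the largest fall, so its promoter was not searched. The CHR was searched as TTTGAA or TTCGAA and the CCAAT box as CCAAT, on both strands (TTCGAA reads the same on both and was counted once). A CHR match and a CCAAT match can share bases. The stretches below run from 110 bases before the start to 30 after it on the gene's strand, with matches in capitals (a match on the opposite strand reads TTCAAA for the CHR and ATTGG for the CCAAT box). The first 4 are the mitotic kinesins with the largest falls among those with a window and a CHR match. Kif24, the largest fall among the others, and Kif1b, the one rise, were added after their values were seen.
Kif2c, chr4:117178743-117178882, minus strand: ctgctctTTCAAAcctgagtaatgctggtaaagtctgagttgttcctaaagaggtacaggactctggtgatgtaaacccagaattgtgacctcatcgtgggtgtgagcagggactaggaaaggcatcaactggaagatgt
Kif22, chr7:127042391-127042530, minus strand: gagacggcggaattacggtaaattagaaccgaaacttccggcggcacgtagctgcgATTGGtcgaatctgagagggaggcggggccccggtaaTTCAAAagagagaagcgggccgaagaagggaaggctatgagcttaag
Kif23, chr9:61946770-61946909, minus strand: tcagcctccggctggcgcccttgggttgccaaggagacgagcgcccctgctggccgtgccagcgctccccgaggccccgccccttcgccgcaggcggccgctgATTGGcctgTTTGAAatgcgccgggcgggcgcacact
Kif4, chrX:100625955-100626094, plus strand: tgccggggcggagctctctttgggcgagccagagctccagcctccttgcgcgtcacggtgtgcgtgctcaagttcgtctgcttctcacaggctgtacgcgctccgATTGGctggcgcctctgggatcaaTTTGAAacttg
Kif24, chr4:41464819-41464958, minus strand: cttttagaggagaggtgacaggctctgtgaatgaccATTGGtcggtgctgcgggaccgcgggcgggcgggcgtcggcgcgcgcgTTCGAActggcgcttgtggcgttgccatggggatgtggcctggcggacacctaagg
Kif1b, chr4:149307704-149307843, minus strand: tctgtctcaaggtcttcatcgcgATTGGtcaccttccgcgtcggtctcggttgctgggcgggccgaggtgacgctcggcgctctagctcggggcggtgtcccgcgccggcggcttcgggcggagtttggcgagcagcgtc

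A CHR match lay in the windows of 9 of 10 mitotic kinesins (90%), all but Kif18a, and of 3 of 18 others (16.7%), namely Kif1a, Kif24 and Kif26b. Among all 27025 genes with a window, 21.7% held one. The sequence TTTGAA stood in 17.9% and TTCGAA in 1.56% of all 32851 windows. A CCAAT match lay in 6 of the 10 mitotic kinesins (60%), in 7 of the 18 others (38.9%) and in 41.1% of all genes. Both motifs were present in 6 mitotic kinesins (60%), 2 others (11.1%) and 9.65% of all genes. Kif22 and Kif15 each had a pair of CHR matches, which began 17 and 215 bases before the start in Kif22 and 19 and 234 before it in Kif15. The single match of Kif11 began 19 bases and that of Kif24 26 bases before the start. In Kif23, Kif18b and Kif4 the match began at base 3, 4 and 20 of the transcript, and Kif20b had matches at bases 8 and 14. In Kif2c and Kif14 it lay 103 and 228 bases before the start. Kif1b had CCAAT matches but no CHR match. A match says only that these letters are present, and no binding was measured.

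**Figure D5:**
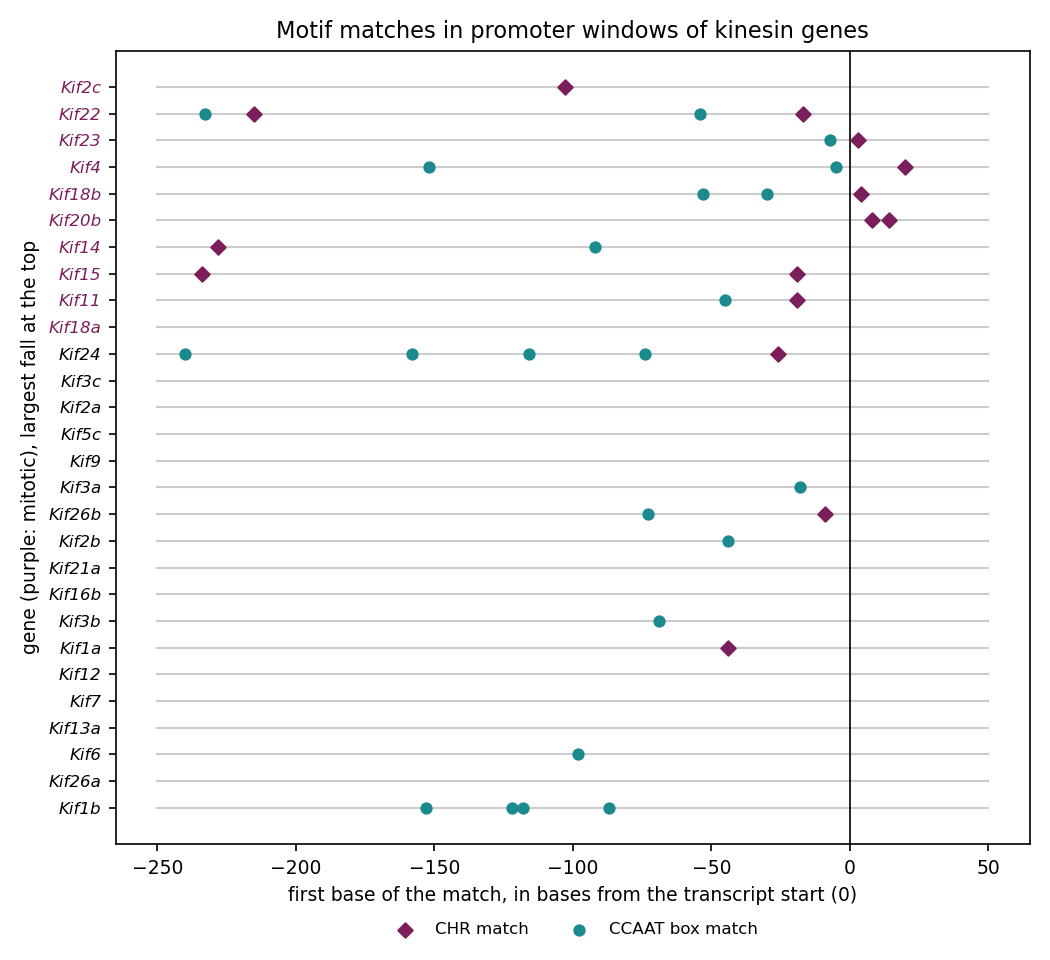
Positions of CHR (diamonds) and CCAAT box (circles) matches on either strand in promoter windows of the 28 kinesin genes that have one, in bases from the transcript start at 0; each grey line is the window, genes run from the largest fall at the top to Kif1b, and mitotic names are purple. Where a gene has 2 windows (Kif1a, Kif1b, Kif2a and Kif9) matches from both are drawn, so the same CCAAT matches of Kif1b appear at a pair of distances each; CHR matches of the mitotic kinesins lie between 234 bases before the start (Kif15) and base 20 after it (Kif4).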

How the data were processed

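RNA of 6 mouse TH17 cultures was measured on Affymetrix arrays. The authors deposited 1 log2 level for each array and row. The submitters' processing notes name RMA and the Transcriptome Analysis Console (version 4.0). Options, annotation and build: not given in the sources used here. No column of another sample was present (0).

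Of 65956 rows, 31258 named 1 gene after repeated names were merged and older symbols updated through RefSeq (GRCm38.p6), 1492 named several genes and 33206 were unnamed here. A symbol with several rows was represented by the row with the highest mean; each kinesin had 1 row (0 had more). All 30701 genes were tested, with no filter, by limma 3.58.1 (lmFit and eBayes, two-sided, no covariate) in R 4.3.3, and adjusted by Benjamini-Hochberg over all of them at a threshold of 0.05. The fit was checked on data with known changes. Pairs of genes were compared within arrays by an exact permutation test (scipy 1.17.1). The number of arrays limits the precision.

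The kinesin genes, the lists and the tests were chosen with earlier results of these data known. In full are given the 11 mitotic kinesins, the other kinesins past the threshold (up to 12) and the 3 brightest that did not pass; of other lists up to 4 of the largest changes, members against the trend and direct kinesin partners, the last chosen after their values were seen. Alternatives were quantile normalization, centring on array medians, genes above the median level, the mean over rows, eBayes with trend and robust, a fit with replicate number as block, and the removal of each array in turn. Figures were drawn with matplotlib 3.10.9.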

Additional observations from a re-analysis of the deposited data

How the results depend on the processing

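All 11 mitotic kinesins were called lower under each of the 12 alternatives, and Kif24, Kif3c, Kif2a and Kif1b kept their calls and directions in each. With the replicate block, 11 mitotic kinesins and 5 others fell and 1 rose, as without it; same-numbered arrays deviated from their group means with correlations of 0.066, -0.23 and 0.28, so the numbers are not shown to pair the cultures. The block moved the count of all genes called from 6845 to 6293. Scaling moved the medians. After quantile normalization the median of the other kinesins was -0.027, and after centring it was -0.106 and that of the mitotic kinesins -1.962. Higher calls were 41.7% of all calls on the deposited values, against 21.7% with quantile normalization and 16.6% with centring. Leaving out 1 array gave 3 to 5 other kinesins lower and 4061 to 6502 genes called in all, against 5 and 6845; the lowest counts came without control replicate 2 (3 and 4345) and without glutamine-free replicate 2 (4 and 4061), and the count was 4559 without glutamine-free replicate 3. These fits have fewer arrays. The calls lost by leaving out an array were those of Kif5c and Kif9, given above. Signal over background was not analysed here, so which dim kinesins lie above it is not known.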

Other observations

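The array rows that name Kif1c, Kif17 or Kif27 together with another gene had these levels. The row naming Kif1c and Mir6925 read 7.29, 7.16 and 7.16 with glutamine and 7.23, 7.07 and 7.33 without it, so its groups overlapped. The row naming Kif17 and Sh2d5 read between 3.86 and 3.99 on all arrays. The rows naming Kif27 with Mir6369 or with Gm26555 read between 3.61 and 3.69 and between 3.06 and 3.29. None of these values can be assigned to 1 gene.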
